A study of Mus musculus with 30 samples.

Results

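The genes described are 53 mouse genes for protein components of the cytosolic ribosome, out of 19938 genes measured. They were taken by name: every gene whose symbol is Rps or Rpl with a number, with at most 1 letter a, x or y after it, the acidic stalk genes Rplp0, Rplp1 and Rplp2, and Rpsa, provided that a row of the array carried that symbol alone. They comprise 20 genes of the small subunit, 30 of the large subunit and 3 of the stalk. Of 79 standard cytosolic ribosomal protein genes, 16 lay only on rows that name several genes and 8 on no named row. Another 2, Rps3a1 and Fau, had a row of their own but names outside the rule. Rps27a, Rpl3 and Rpl11 are therefore among those not analysed here.

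The arrays came from subcutaneous tumours of EL4, a mouse T cell lymphoma line, grown from 500000 cells injected into the flank of mice whose titles read WT; strain and age were not given. Groups were ABX mice at 0, 6 and 18 h and H2O mice at 0, 6 and 18 h, with 5 arrays in each and 30 in all. ABX mice had received an antibiotic cocktail for 3 weeks before the cells, and H2O mice, described as water-treated or as left untreated, had not. All mice were given intraperitoneal oxaliplatin, a platinum drug that damages DNA, at 10 mg per kg, 7 days after the cells, and the times count from that dose. No tumour without oxaliplatin was sampled at 6 or 18 h, so a change with time cannot be told apart from an effect of the drug. The labels do not state that each array came from a separate mouse, so a p-value covers the spread between arrays of a group, which may be technical.

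Ribosomal proteins are made in nearly equal amounts, assembled with ribosomal RNA in the nucleolus and exported as subunits. Their mRNAs are among the most abundant in a growing cell and carry a stretch of C and T letters at the 5′ end, the TOP tract, through which mTOR and LARP1 set how much they are translated. When assembly is disturbed, free RPL5 and RPL11 bind MDM2, the ligase that leads to degradation of p53. The family is therefore also known as a sensor of disturbed assembly upstream of p53.

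The start sites of a few members are shown because the tract is the sequence that most of the family is known for, and because members that passed the test and members that did not both include genes with and without it here. RefSeq start windows on GRCm38.p6 were available for 42 of the 53 genes, as 49 windows of 250 bases before and 50 bases from the annotated start. Each line gives 10 bases before the start and 20 from it, on the strand of the gene, and capitals mark a run of at least 8 C or T letters that reaches within 5 bases of the start. Rps6 lies at chr4:86857348-86857377 on the minus strand, Rps18 at chr17:33955646-33955675 (minus), Rpl28 at chr7:4792955-4792984 (plus), Rps9 at chr7:3704031-3704060 (plus), Rpl36a at chrX:134585644-134585673 (plus) and Rpl26 at chr11:68901556-68901585 (plus).
Rps6: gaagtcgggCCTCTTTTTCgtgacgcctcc
Rps18: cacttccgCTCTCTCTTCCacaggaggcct
Rpl28: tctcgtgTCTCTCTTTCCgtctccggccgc
Rps9: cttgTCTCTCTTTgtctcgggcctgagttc
Rpl36a: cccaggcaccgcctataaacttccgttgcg
Rpl26: ggcaacttacagaaccggaagtcgcgtgta

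Such a run was found in 14 of the 49 windows (28.6%), against 9.72% of 32851 RefSeq windows of the same length. The letters CTTCCG, searched on both strands and able to overlap the run, stood in 32 of the 49 windows (65.3%), against 16.9% of all windows. Of the 8 genes that passed the test at 18 h, described below, 7 had windows, 9 in all with 3 of Rps19, and Rpl7 had none. Of these 9 windows 1 held the run, that of Rps9, and 5 held CTTCCG. An annotated start can lie some bases from the one a cell uses, and a missing run says only that these letters are not in the window.

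The measured levels of these genes, which lie high on the array scale, varied little between arrays and changed little with antibiotics or time. In ABX tumours compared with H2O tumours, 0 of 53 members passed at 0, 6 or 18 h, when 0.0903%, 3.77% and 7.85% of all genes did. From 0 to 18 h in H2O tumours 8 members (15.1%) rose, when 14.1% of all genes passed in either direction and 6.18% rose. The 8 rose by 0.095 to 0.17 on the log2 scale, which is 1.07-fold to 1.12-fold. They were Rps3, Rps9 and Rps19 of the small subunit and Rpl7, Rpl23, Rpl26, Rpl36a and Rpl37a of the large subunit. In ABX tumours 0 passed over the same interval, when 1.22% of all genes did, and 0 passed the test of whether the change differed between ABX and H2O tumours. Over the same 18 h in H2O tumours 17 of 34 genes for ribosome assembly fell, when 7.94% of all genes fell, and Rps27l, a paralog of Rps27 outside the family as defined, rose by 0.31.

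Levels are log2 array values, for which each gene is represented by its brightest row. Mean levels ran from 8.26 for Rplp2 to 13.4 for Rplp1, with a median of 12.3, and all 53 lay above the median row of the array. Such levels depend on the probes and give no ranking of the proteins. The spread between arrays of a group was small: the median SD was 0.046 for the members, 0.084 for 77 mitochondrial ribosomal protein genes and 0.115 for all genes. These lists were not matched for level. The median level was 9.71 for the mitochondrial genes and 7.52 for all genes, of which the highest stood at 13.7. Whether levels near the top of the scale narrow the spread or the changes of the members was not tested. Rps18 had the lowest SD, 0.023, and Rpl14, on a dimmer row at 9.24, the highest, 0.18. The heat map of all members shows this spread array by array.

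**Figure D1:**
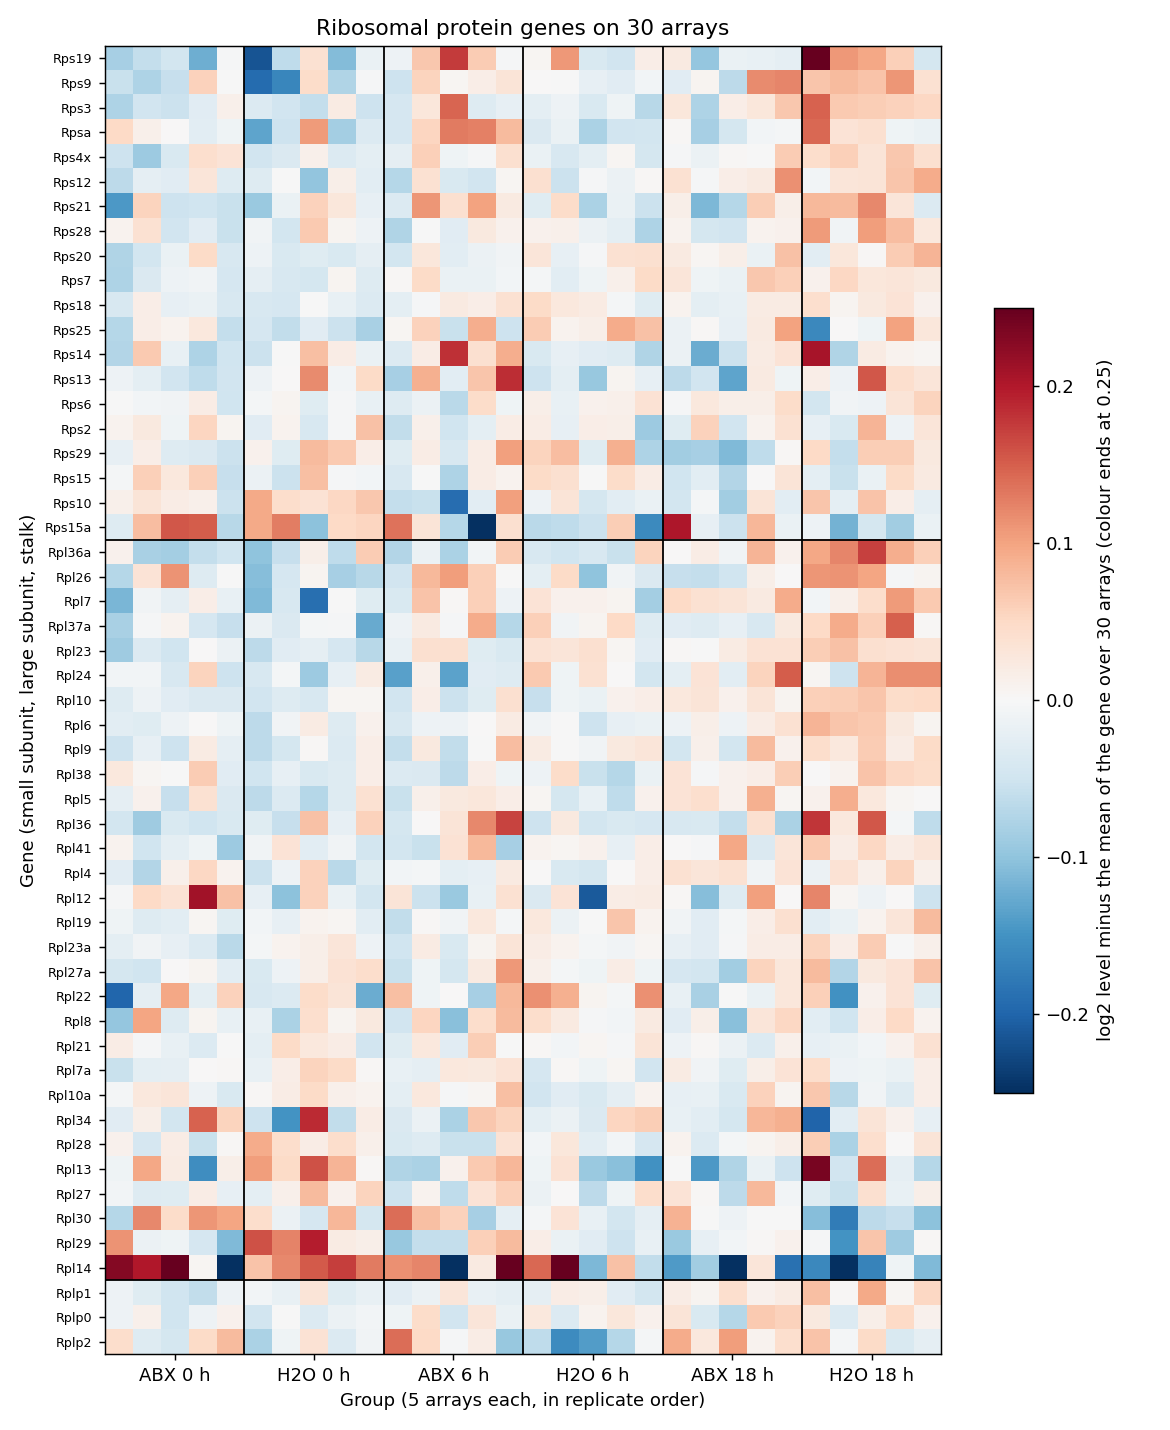
Log2 level of each of the 53 genes (rows, by subunit) on each of the 30 arrays (columns, 5 per group) minus that gene's mean over the arrays. Most cells are pale, and Rpl14 has the strongest colours of both signs. Within each subunit, rows are ordered by the change at 18 h in H2O mice, which places red cells of that group towards the top. Not every upper row is red on all 5 of these arrays: Rps19 read 11.76 on H2O 18 h array 5, below its mean of 11.8.

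All 53 members together read 208 rows of the array. For 15 genes there was 1 row, and for 38 there were several, up to 14 for Rps12. Of these rows 19 held values identical to another row of a member, and processed copies of ribosomal protein genes are numerous in the mouse genome, so a row may read more than the gene it names. The rows of Rpl12 and Rplp2 carry no RefSeq mRNA in the annotation. For 16 of the 38 genes the rows differed in sign for the change from 0 to 18 h in H2O mice. This was not so for the 4 of the 8 genes above that have several rows: the rows of Rps9 gave 0.21 and 0.15, of Rpl36a 0.12 and 0.14, of Rpl23 0.11 and 0.095, and of Rpl7 between 0.074 and 0.12.

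The comparison of ABX with H2O tumours asked whether antibiotics before the tumour altered the family. At 0 h 0 of 53 members passed, against 0.0903% of all genes. At 6 h 0 passed, against 3.77% of all genes, at 18 h 0 against 7.85%, and averaged over the 3 times 0 against 6.65%. Passing means an adjusted p under 0.05 in limma with Benjamini-Hochberg adjustment over all 19938 genes. An unadjusted p under 0.05 was seen for 1, 3 and 9 members at 0, 6 and 18 h and for 3 averaged over the times. Over all 19938 genes it was seen for 1317, 3969 and 3984 at these times and for 3744 averaged.

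The differences were small and bounded. At 18 h they ran from -0.12 for Rps19 to 0.12 for Rpl30 (0.919-fold to 1.08-fold), and the 95% intervals of the 53 genes all lay between -0.23 and 0.24. At 6 h the intervals lay between -0.28 and 0.20, and at 0 h between -0.27 and 0.20. Averaged over the times they lay between -0.16 and 0.12. At 18 h 14 of 53 values were above 0, with a median of -0.018, beside a median of -0.0059 over all genes.

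Rpl30, whose product also binds its own transcript in yeast, had the lowest p at 18 h and was chosen after its values were seen. It read 10.58, 10.49, 10.48, 10.49 and 10.49 in ABX tumours at 18 h, against 10.39, 10.32, 10.43, 10.43 and 10.39 in H2O tumours. The 5 ABX arrays all lay above the 5 H2O arrays, which was also so, the other way round, for Rpl10 and held for 7.2% of all genes in either direction. The difference of 0.12 ± 0.042 (SE) did not pass (limma adjusted p = 0.0960).

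Rpsa, the laminin receptor homologue of the small subunit, had the lowest p at 6 h. It read 12.15, 12.25, 12.32, 12.32 and 12.27 in ABX tumours at 6 h, against 12.16, 12.18, 12.11, 12.14 and 12.15 in H2O tumours. The lowest ABX array fell among the H2O arrays and the other 4 lay above them. The difference of 0.11 ± 0.041 did not pass (limma adjusted p = 0.115).

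Of the stalk genes, whose products form the arm that recruits elongation factors, Rplp0 and Rplp1 differed between ABX and H2O tumours by at most 0.026 in size at any time. The only row of Rplp2 carries no RefSeq mRNA in the annotation. Its mean level was 8.26, beside 13.3 for Rplp0 and 13.4 for Rplp1, so it may not read the stalk gene. On this row Rplp2 read 8.40, 8.31, 8.26, 8.28 and 8.16 in ABX tumours at 6 h. The H2O tumours read 8.19, 8.10, 8.12, 8.19 and 8.25, and again the lowest ABX array fell among the H2O arrays. The difference of Rplp2 was 0.11 ± 0.041 at 6 h (limma adjusted p = 0.128) and 0.064 ± 0.024 averaged over the times (adjusted p = 0.110). Without ABX 6 h array 5 Rplp2 passed at 6 h and, with Rpl30, averaged over the times, and without ABX 6 h array 1 Rpsa passed at 6 h, so that the counts were 1, 2 and 1. The averaged count was also 1 without ABX 0 h array 1 or ABX 6 h array 4, and without H2O 18 h array 5 Rps19 passed at 18 h, lower in ABX tumours.

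In ABX tumours 0 of 53 members passed at 6 h relative to 0 h, when 0.0% of all genes did. An unadjusted p under 0.05 was seen for 3 members, beside 2011 of all 19938 genes. The lowest p belonged to Rps19 (0.12 ± 0.050, limma adjusted p = 0.418) and Rpl36 (0.11 ± 0.045). They were followed by Rps21 (0.096 ± 0.043), Rps13 (0.086 ± 0.043), Rps14 (0.090 ± 0.046) and Rpl12 (-0.092 ± 0.050). The highest p belonged to Rps12, Rpl29 and Rpl4, with differences of 0.0020 or less in size. Values above 0 were 39 of 53, with a median of 0.015 beside 0.0085 over all genes.

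At 18 h in ABX tumours 0 of 53 passed, against 1.22% of all genes. An unadjusted p under 0.05 was seen for 2223 of all 19938 genes and for 1 member. This was Rps7, another small subunit protein known to bind MDM2, at 0.061 ± 0.028 (limma adjusted p = 0.395). It was followed by Rpl7 (0.077 ± 0.038), Rpl14 (-0.22 ± 0.11), Rpl36a (0.074 ± 0.037), Rpl23 (0.056 ± 0.028) and Rplp1 (0.053 ± 0.028). The arrays of 18 h and 0 h did not overlap for Rpl7, Rplp1 and Rpl10, beside 3.26% of all genes without overlap. Rpl22, Rpl8 and Rps14 had the highest p, with differences of 0.0030 or less. Values above 0 were 37 of 53, with a median of 0.022 beside 0.012 over all genes, and all 95% intervals lay between -0.44 and 0.15.

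In H2O tumours 0 of 53 members passed at 6 h relative to 0 h, against 1.11% of all genes. An unadjusted p under 0.05 was seen for 4 members, beside 2113 of all 19938 genes. The lowest p belonged to Rpl29 (-0.12 ± 0.047, limma adjusted p = 0.283), Rpl13 (-0.14 ± 0.056) and Rps25 (0.10 ± 0.041). Rpl23 (0.063 ± 0.028), Rps10 (-0.072 ± 0.039) and Rpl7 (0.069 ± 0.038) came next. Rpl21, Rps4x and Rpl36a had the highest p, with differences of 0.0018 to 0.0021. The median was 0.0021, beside -0.0065 over all genes.

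At 18 h in H2O tumours 8 of 53 members rose and 0 fell, which is 15.1% of the members. Over all genes 14.1% passed in either direction, 6.18% higher and 7.94% lower. The share of members that passed was thus near that of all genes, and the 8 were all on the higher side. An unadjusted p under 0.05 was seen for 15 members, beside 5095 of all 19938 genes. Values above 0 were 39 of 53, with a median of 0.042 beside 0.012 over all genes. By role, 3 of 20 small subunit, 5 of 30 large subunit and 0 of 3 stalk genes passed, with medians of 0.053, 0.031 and 0.034. The plot of the change of each gene sets these values beside those in ABX tumours.

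**Figure D2:**
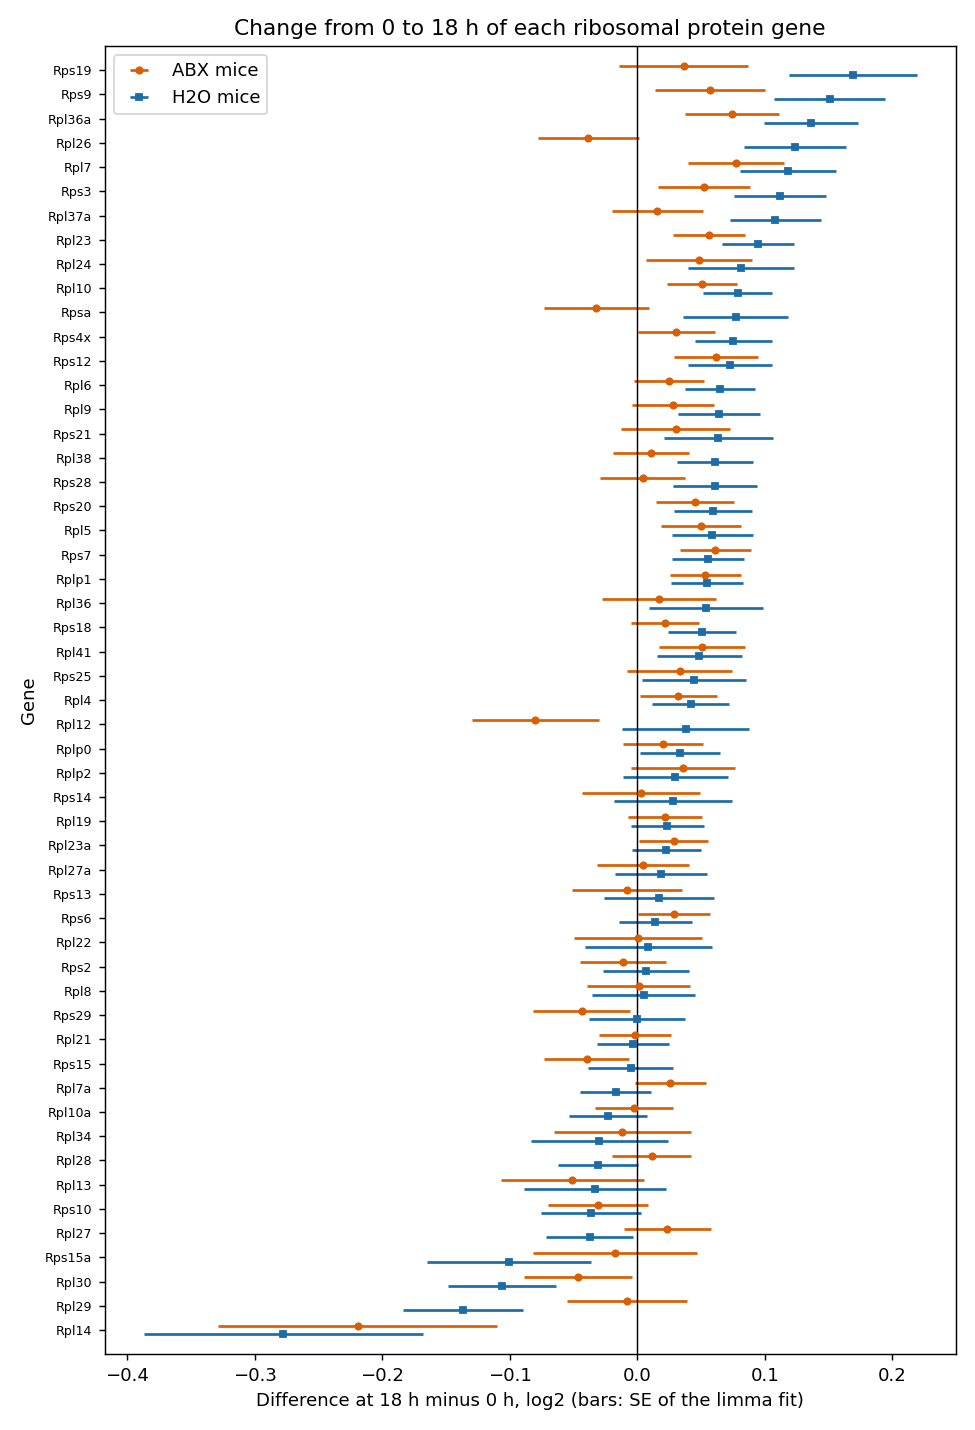
Difference at 18 h minus 0 h on the log2 scale for each of the 53 genes, in ABX mice (circles) and H2O mice (squares), ordered by the value in H2O mice; bars are the SE of the limma fit. Most points lie between -0.1 and 0.1, Rps19 is highest in H2O mice at 0.17, and Rpl14 is lowest in both.

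Rps19, a small subunit protein needed for maturation of its ribosomal RNA and mutated in Diamond-Blackfan anaemia in humans, had the largest value. In ABX tumours it read 11.82, 11.70, 11.78, 11.78 and 11.78 at 18 h, against 11.72, 11.74, 11.75, 11.68 and 11.80 at 0 h, which overlap widely. In H2O tumours it read 12.06, 11.91, 11.90, 11.86 and 11.76 at 18 h, against 11.58, 11.74, 11.84, 11.69 and 11.78 at 0 h. Of the 18 h H2O arrays 4 lay above all 0 h arrays and the fifth lay among them. The difference was 0.036 ± 0.050 in ABX tumours and 0.17 ± 0.050 in H2O tumours (limma adjusted p = 0.0222). It no longer passed without H2O 0 h array 1 or 4 or H2O 18 h array 1 (adjusted p = 0.0571 to 0.0906).

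Rps9, a small subunit protein whose yeast counterpart affects reading accuracy, ranged from 12.02 to 12.21 at 18 h in ABX tumours, against 12.01 to 12.14 at 0 h. H2O tumours read 12.15, 12.16, 12.16, 12.19 and 12.12 at 18 h, against 11.89, 11.92, 12.13, 12.01 and 12.08 at 0 h. The 18 h arrays lay close together at the top of a wide 0 h group and met it at 1 array of each. The difference was 0.057 ± 0.043 in ABX tumours and 0.15 ± 0.043 in H2O tumours (limma adjusted p = 0.0176), and it did not pass without H2O 0 h array 1 or 2 (adjusted p = 0.0707 and 0.0605).

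Rps3, a small subunit protein at the mRNA entry channel that also takes part in DNA repair and NF-kB signalling, ranged from 11.71 to 11.86 at 18 h in ABX tumours, against 11.71 to 11.80 at 0 h. H2O tumours read 11.94, 11.85, 11.85, 11.85 and 11.84 at 18 h, against 11.75, 11.74, 11.73, 11.81 and 11.74 at 0 h. Every 18 h H2O array lay above every 0 h one, and array 1 stood apart from the other 4. The difference was 0.052 ± 0.036 in ABX tumours and 0.11 ± 0.036 in H2O tumours (limma adjusted p = 0.0362). It did not pass without any 1 of H2O 0 h arrays 1, 2, 3 and 5 or H2O 18 h arrays 1, 2 and 3 (adjusted p = 0.0531 to 0.109).

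Of the large subunit, Rpl36a, which lies near the site where spent tRNA leaves the ribosome, had the lowest p of all members. It ranged from 12.71 to 12.81 at 18 h in ABX tumours, against 12.64 to 12.73 at 0 h. The H2O arrays read 12.82, 12.84, 12.89, 12.81 and 12.78 at 18 h, against 12.62, 12.66, 12.74, 12.66 and 12.78 at 0 h. The highest 0 h H2O array stood just above the lowest 18 h one, and the rest were apart. The difference was 0.074 ± 0.037 in ABX tumours and 0.14 ± 0.037 in H2O tumours (limma adjusted p = 0.0121), and it passed whichever array was left out.

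Rpl26, whose product binds the p53 transcript and raises its translation after DNA damage in human cells, had the largest interaction of treatment with time at 18 h, given below. In ABX tumours it read 10.55, 10.55, 10.56, 10.62 and 10.61 at 18 h, against 10.53, 10.64, 10.72, 10.57 and 10.61 at 0 h, with the 18 h arrays inside the range of 0 h. In H2O tumours it read 10.72, 10.72, 10.70, 10.60 and 10.61 at 18 h, against 10.50, 10.56, 10.61, 10.52 and 10.54 at 0 h. Of the 18 h H2O arrays 3 lay well above 0 h and the other two at its upper end. The difference was -0.038 ± 0.040 in ABX tumours and 0.12 ± 0.040 in H2O tumours (limma adjusted p = 0.0357). It did not pass without any 1 of H2O 0 h arrays 1, 2, 4 and 5 or H2O 18 h arrays 1, 2 and 3 (adjusted p = 0.0512 to 0.0926).

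Rpl23, a large subunit protein that also binds MDM2, ranged from 12.68 to 12.71 at 18 h in ABX tumours, against 12.59 to 12.68 at 0 h. The H2O arrays read 12.74, 12.75, 12.72, 12.71 and 12.71 at 18 h, against 12.61, 12.65, 12.65, 12.63 and 12.61 at 0 h, with no overlap. The difference was 0.056 ± 0.028 in ABX tumours and 0.095 ± 0.028 in H2O tumours (limma adjusted p = 0.0224). It did not pass without H2O 0 h array 1 or 5 or H2O 18 h array 2 (adjusted p = 0.0505 to 0.0565).

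Rpl7, a large subunit protein with RNA-binding activity, ranged from 12.30 to 12.37 at 18 h in ABX tumours, against 12.16 to 12.29 at 0 h. Values in H2O tumours were 12.27, 12.29, 12.32, 12.38 and 12.34 at 18 h, against 12.16, 12.23, 12.08, 12.27 and 12.24 at 0 h. The groups met at the highest 0 h array in H2O tumours and were apart in ABX tumours. The difference was 0.077 ± 0.038 in ABX tumours and 0.12 ± 0.038 in H2O tumours (limma adjusted p = 0.0340). It did not pass without H2O 0 h array 1 or 3 or H2O 18 h array 3, 4 or 5 (adjusted p = 0.0600 to 0.119).

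Rpl37a, a zinc-finger protein of the large subunit that was named after its values were seen, ranged from 12.46 to 12.53 at 18 h in ABX tumours, against 12.42 to 12.51 at 0 h. Values in H2O tumours were 12.55, 12.60, 12.56, 12.65 and 12.51 at 18 h, against 12.49, 12.47, 12.50, 12.50 and 12.38 at 0 h. The groups in H2O mice did not overlap, by a narrow margin. The difference was 0.016 ± 0.036 in ABX tumours and 0.11 ± 0.036 in H2O tumours (limma adjusted p = 0.0403). It did not pass without any 1 of H2O 0 h arrays 1, 2 and 5 or H2O 18 h arrays 1, 2, 3 and 4 (adjusted p = 0.0518 to 0.125).

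**Figure D3:**
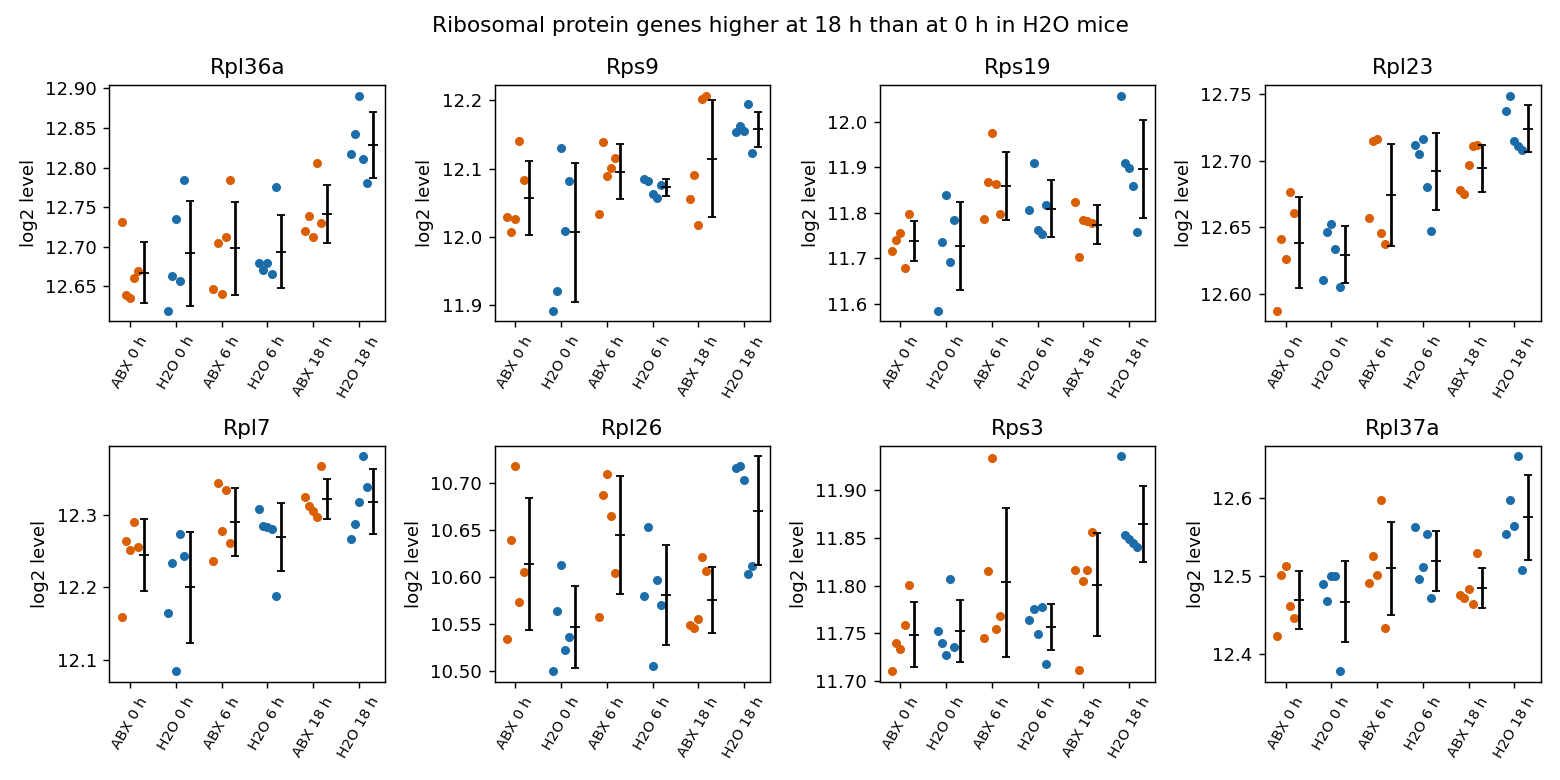
Log2 level of the 8 genes that rose from 0 to 18 h in H2O mice, on each array of the 6 groups (points; 5 per group, ABX and H2O paired at each time), with the group mean and SD as bars. The vertical axes differ and span less than 0.5. The H2O 18 h points of Rps3, Rpl23 and Rpl37a lie above all H2O 0 h points, and those of the other 5 genes meet them.

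The count of 8 rested on several arrays and on the spread shared by all 6 groups. It was 1 without H2O 0 h array 1, 4 without H2O 0 h array 2, H2O 18 h array 1 or H2O 18 h array 2, and 5 without H2O 18 h array 3. The last of these counts includes Rpl29, which was lower and is not one of the 8. The share of all genes that passed is not given for these or the following fits. Fitted on these 10 arrays alone, 1 member passed, Rpl14, which was lower, and with the median of each array subtracted 3 did, Rps19 and Rpl36a higher and Rpl29 lower.

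Complete separation of the 18 h from the 0 h arrays in H2O tumours was seen for 10 of 53 members, beside 11.2% of all genes. They were Rpl23, Rpl37a and Rps3 of the 8, and Rpl9, Rpl10, Rps4x, Rps7 and Rps18 higher and Rpl14 and Rpl30 lower, which did not pass. Rps4x, the X-linked small subunit gene, read 12.59, 12.60, 12.58, 12.61 and 12.59 at 18 h in H2O tumours, against 12.50, 12.51, 12.56, 12.51 and 12.52 at 0 h. Its difference was 0.075 ± 0.030 (limma adjusted p = 0.101).

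The lowest values belonged to Rpl14, a large subunit protein on a dim row. It read 9.08, 8.95, 9.08, 9.24 and 9.13 at 18 h in H2O tumours, against 9.32, 9.37, 9.40, 9.42 and 9.37 at 0 h, without overlap. The difference of -0.28 ± 0.11 did not pass (limma adjusted p = 0.0934) and passed when only these groups were fitted. The arrays of other groups were more spread, from 8.71 to 9.55 in ABX tumours at 6 h. Rpl29 (-0.14 ± 0.047, adjusted p = 0.0515) and Rpl30 (-0.11 ± 0.042, adjusted p = 0.0981) were the next lowest.

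Several of the best known members stayed within narrow bounds at 18 h. Rps6, the target of the S6 kinases downstream of mTOR, differed by 0.029 ± 0.028 in ABX tumours and 0.014 ± 0.028 in H2O tumours. Rpl5, the MDM2-binding partner of 5S ribosomal RNA, differed by 0.050 ± 0.032 in ABX tumours and 0.059 ± 0.032 in H2O tumours (limma adjusted p = 0.250). Rpl22, a large subunit protein needed for normal alpha-beta T cell development in mice, differed by 0.00042 ± 0.050 in ABX tumours and 0.0086 ± 0.050 in H2O tumours. Rpl41, the smallest ribosomal protein, differed by 0.051 ± 0.034 and 0.049 ± 0.034 in ABX and H2O tumours. Rpsa stood at -0.032 ± 0.041 in ABX tumours and 0.077 ± 0.041 in H2O tumours. The stalk genes Rplp0, Rplp1 and Rplp2 stood at 0.020, 0.053 and 0.036 in ABX tumours and at 0.034, 0.055 and 0.030 in H2O tumours. The highest p in H2O tumours belonged to Rps29, Rpl8 and Rpl21, with differences of 0.0051 or less in size.

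Whether the change with time differed between ABX and H2O tumours was tested by the interaction. At 6 h 0 of 53 members passed, when 0.0% of all genes did. An unadjusted p under 0.05 was seen for 2 members, beside 1964 of all 19938 genes. At 18 h 0 passed, against 0.105% of all genes. An unadjusted p under 0.05 was seen for 1893 of all 19938 genes and for 1 member. That gene was Rpl26, with an interaction of -0.16 ± 0.056 (limma adjusted p = 0.279), and Rps19 stood at -0.13 ± 0.071. For 37 of 53 members the change at 18 h was less positive in ABX than in H2O tumours, with a median interaction of -0.014 beside 0.0015 over all genes. The change from 0 h in H2O tumours and the difference between ABX and H2O tumours at 18 h use the same H2O arrays, so a gene read high there moves both.

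Genes for ribosome assembly and for translation were examined beside the structural proteins. The lists were written by function, but with earlier results of these data known. Of 34 ribosome biogenesis genes, 4 fell and 0 rose from 0 to 18 h in ABX tumours, and 17 fell and 0 rose in H2O tumours, with medians of -0.081 and -0.14. Over all genes 0.316% rose and 0.908% fell in ABX tumours at that time, and 6.18% rose and 7.94% fell in H2O tumours. Rrp12, known in yeast as a ribosome export factor, fell by 0.26 and Polr1b, the RNA polymerase I subunit, by 0.27 in ABX tumours. Bysl, a small subunit processing factor, fell by 0.37 and Fbl, the ribosomal RNA methylase fibrillarin, by 0.27 in H2O tumours. At 18 h 11 of the 34 were higher and 0 lower in ABX than in H2O tumours, when 4.52% of all genes were higher and 3.34% lower, with Nop58, a core protein of small nucleolar particles, at 0.31 ± 0.058 and Gnl3, the nucleolar GTPase nucleostemin, at 0.22 ± 0.042. That count fell to 4, 6, 7 and 7 without ABX 18 h array 1, ABX 18 h array 4, H2O 18 h array 1 and H2O 18 h array 3. The 4 that fell from 0 to 18 h in ABX tumours were 2 without ABX 0 h array 2 or 5 or ABX 18 h array 2, 3 or 5. Between ABX and H2O tumours at 0 h, 32 of the 34 were already above 0, with a median of 0.084, and 0 passed. Averaged over the 3 times 19 were higher and 0 lower in ABX tumours, when 6.65% of all genes passed in either direction. The interaction at 18 h passed for 0 of the 34, when 0.105% of all genes passed.

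Of 34 translation factors tested, 1 rose and 1 fell in ABX tumours at 18 h, Eif3e (0.15 ± 0.039) and Eef1d (-0.20 ± 0.046), beside 0.316% and 0.908% of all genes. In H2O tumours 3 rose and 9 fell, beside 6.18% and 7.94% of all genes, among them Eif4e, the cap-binding protein (-0.30 ± 0.045), and Eif3f, an initiation factor subunit (0.25 ± 0.038). At 18 h 8 were higher and 2 lower in ABX than in H2O tumours, beside 4.52% and 3.34% of all genes, with Eif4e at 0.26 ± 0.045 and Eif3a at 0.25 ± 0.049. Those 10 were 5 without ABX 18 h array 1 or H2O 18 h array 1 and 6 without ABX 18 h array 4 or H2O 18 h array 3, and the 2 in ABX tumours were 0 or 1 without any 1 array of these groups. The 77 mitochondrial ribosomal protein genes, which encode a separate ribosome, gave 0 higher and 1 lower in ABX tumours at 18 h, and 1 higher and 13 lower in H2O tumours. The shares of all genes are those given for the translation factors. These counts were 0 and 0 without ABX 0 h array 2, and 1 and 8 without H2O 18 h array 1. Mrps18b fell in both, by 0.21 in ABX and by 0.36 in H2O tumours, and Mrps21 fell by 0.38 in H2O tumours. The medians of the cytosolic ribosomal proteins were above 0 in both kinds of mice and those of these 3 lists below 0, as the plot of the lists shows. The comparison between lists was not tested.

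**Figure D4:**
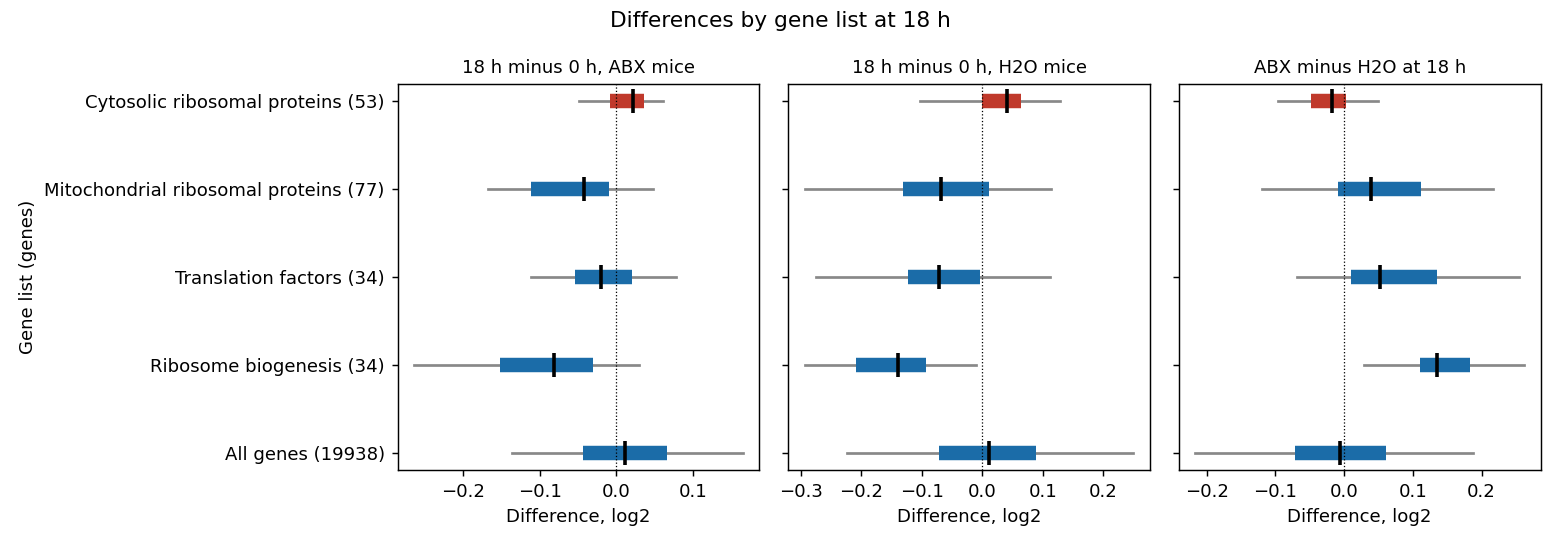
Distribution of log2 differences for the cytosolic ribosomal proteins (53 genes), mitochondrial ribosomal proteins (77), translation factors (34), ribosome biogenesis genes (34) and all genes (19938). Panels show 18 h minus 0 h in ABX mice, 18 h minus 0 h in H2O mice, and ABX minus H2O at 18 h; the black line is the median, the box spans the quartiles and the thin line runs between percentiles 5 and 95. The ribosomal protein box is the narrowest, and the ribosome biogenesis box is furthest from 0 in each panel.

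Paralogs with names outside the rule were looked at separately, and 6 of 8 were measured. Rps27l, which p53 induces in human cells, read 12.32, 12.37, 12.30, 12.43 and 12.49 in ABX tumours at 18 h, against 12.48, 12.59, 12.53, 12.61 and 12.50 in H2O tumours at 18 h. It read 12.15, 12.31, 12.22, 12.24 and 12.26 in ABX tumours at 0 h, against 12.20, 12.25, 12.19, 12.30 and 12.22 in H2O tumours at 0 h. At 0 h the treatments overlapped throughout, and at 18 h they met at 1 array of each. From 0 to 18 h it was higher by 0.14 ± 0.048 in ABX tumours (limma adjusted p = 0.161) and rose by 0.31 ± 0.048 in H2O tumours (adjusted p = 5.21e-05). At 18 h it was lower in ABX than in H2O tumours, with a difference of -0.16 ± 0.048 (adjusted p = 0.0382), and the interaction was -0.17 ± 0.068 (adjusted p = 0.403).

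The rise of Rps27l in H2O tumours passed in 17 of 17 other settings. Its difference between ABX and H2O tumours at 18 h did not pass without any 1 of ABX 18 h arrays 1, 2 and 3 or H2O 18 h arrays 2, 3 and 4 (adjusted p = 0.0674 to 0.120). Nor did it pass with array medians subtracted (adjusted p = 0.165) or with only the compared groups fitted (adjusted p = 0.103), so that it passed in 9 of 17 settings. Rpl10l, a paralog made in male germ cells, stood at 0.22 ± 0.074 in H2O tumours at 18 h (limma adjusted p = 0.0451) and passed in 5 of 16 other settings. Rpl39l (0.11 ± 0.073), Rpl3l (0.057 ± 0.11), Rpl7l1 (-0.018 ± 0.047) and Rps4l (-0.017 ± 0.073) did not pass.

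Of 11 genes that are known to act on ribosomal protein supply or report on p53 and the integrated stress response, 2 rose and 3 fell in ABX tumours at 18 h, and 2 rose and 6 fell in H2O tumours. Over all genes 0.316% rose and 0.908% fell in ABX tumours, and 6.18% rose and 7.94% fell in H2O tumours. Myc, the transcription factor that drives ribosome production, stood at -0.16 ± 0.047 in ABX tumours (limma adjusted p = 0.0898) and fell by 0.22 in H2O tumours (adjusted p = 0.00159). Larp1, which binds TOP tracts, stood at -0.12 ± 0.036 in ABX tumours (adjusted p = 0.113) and fell by 0.18 in H2O tumours (adjusted p = 0.000783). Eif4ebp1, the translation inhibitor that mTOR phosphorylates, fell by 0.55 in ABX and by 0.40 in H2O tumours, and Mdm2 rose by 0.38 in ABX and by 0.65 in H2O tumours. Mtor itself differed by -0.034 ± 0.036 and -0.011 ± 0.036 in ABX and H2O tumours. The changes of the whole list ran from -1.29 to 0.94 in ABX tumours and from -1.20 to 1.55 in H2O tumours. The lowest in both was that of Chac1, whose mean went from 9.98 to 8.68 in ABX tumours and from 9.19 to 7.99 in H2O tumours.

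The members did not all follow one pattern over the 30 arrays. The correlation of each gene with the mean of the other members, a description over arrays that share their processing, had a median of 0.393. It was over 0.5 for 16 genes, highest for Rps28 at 0.761, and under 0 for 4, Rpl30 (-0.376), Rps15a, Rplp2 and Rpl14. Outside the family, the genes whose levels were most like the mean of the members were Ascc1 (Pearson r = 0.826 over 30 arrays), Cenpt (0.802), Ndufa6 (0.801), Rabac1 (0.783) and Slc25a11 (0.766). The groups differ in these arrays, and no p is given.

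Markers of other cells moved over the same interval in which the 8 genes rose, and in a whole tumour fewer cells of a type and less RNA per cell cannot be told apart. Of T cell markers, 12 of 12 measured lay above the median row, from Cd2 at 7.83 to Lat at 12.1. So did 9 of 9 endothelial, 9 of 9 fibroblast and 13 of 14 macrophage markers. These levels therefore do not set EL4 apart from other cells. Relative to each gene's mean, the 9 endothelial markers averaged 0.077 to 0.22 on the H2O 18 h arrays, against -0.12 to 0.070 on the H2O 0 h arrays, and 5 rose. The 9 fibroblast markers averaged 0.014 to 0.39, against -0.28 to 0.16, with 2 higher, and the 14 macrophage markers 0.11 to 0.46, against -0.12 to 0.33, with 3 higher. The 12 T cell markers averaged 0.0082 to 0.15, against 0.0058 to 0.14, with 2 higher. Neutrophil, keratinocyte and skeletal muscle markers had 0 of 10, 0 of 11 and 0 of 12 past the threshold, and of erythroid markers 1 of 4 rose. Beside these marker counts, 6.18% of all genes rose and 7.94% fell in H2O tumours over the same interval. The part of these cells in the change of the ribosomal protein genes was not tested.

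Single arrays with markers of surrounding tissue were ABX 6 h array 1 and H2O 6 h array 1, with keratinocyte means of 1.90 and 2.06, and ABX 6 h array 5, with a muscle mean of 1.55. ABX 6 h array 3 had the narrowest spread over all rows of any array (SD 2.16) and the widest spread of the members about their means (SD 0.101). These 6 h arrays enter the comparisons of 18 h with 0 h only through the shared estimate of the spread. Lower means stood on arrays that do enter them: the muscle mean was 0.593 on ABX 0 h array 1 and 0.711 and 0.790 on H2O 0 h arrays 3 and 5, and the keratinocyte mean was 0.684 on ABX 18 h array 1. Without H2O 0 h array 3 or 5 the count of 8 members in H2O tumours was 6 each time. Without array 5 the 6 included Rpl29, which was lower, and Rpl10, which was higher, neither of them among the 8.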

How the data were processed

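Total RNA (300 ng per sample) was amplified, labelled with biotin and hybridised to Affymetrix gene arrays, per the labels' protocols. The authors deposited 1 table of log2 values for 30 arrays; the submitters' processing notes name Partek 6.6, and the probe summary and normalisation are not given in the sources used here. Medians of the arrays were close but not identical, and values were used as deposited. Symbols came from the platform's probe table: of 28853 rows 21775 had 1 symbol, 1578 several and 5500 none. The row with the highest mean was kept per symbol, which gave 19938 genes.

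A model of 6 group means was fitted to all genes and 30 arrays with limma 3.58.1 in R 4.3.3 (lmFit, eBayes; 24 residual and 3.63 prior degrees of freedom). P-values were two-sided and adjusted by Benjamini-Hochberg over all genes within each of 10 comparisons, with 0.05 as threshold. Errors are SEs of the fit, and 95% intervals use its t distribution. The number of arrays limits the precision. On simulated data for ABX against H2O at 18 h, with 200 of 19938 genes changed, 86% of changes of 0.5 and 96% of changes of 1 were recovered, with 9 false calls. All differences of the ribosomal protein genes, which lay between -0.28 and 0.17, were smaller in size than those simulated. Recovery of differences of that size was not measured.

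Named genes were the members past the threshold between ABX and H2O or in an interaction, the 6 lowest and 3 highest p in each comparison of times, and a fixed set of well known members. From other lists the 2 lowest p were named, with the paralogs and the 5 genes most like the mean of the members. Mtor was also named, without a low p at 18 h, and Chac1 for the size of its change. Members and lists were chosen with earlier results of these data known. Alternatives were array medians subtracted, quantile normalisation, dim genes left out, all rows of a gene averaged, only the compared groups, eBayes with trend and robust options, array weights, and each array left out. Start windows came from RefSeq GRCm38.p6 and were found by symbol.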

Additional observations from a re-analysis of the deposited data

Results flagged for a closer look

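Among 120 groups of 5 arrays examined for the named members, 10 held an array whose gap to the nearest other array, divided by the range of the group, was above Dixon's 95% critical value of 0.71. Chance gives this in about 1 group in 20.

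In ABX tumours, Rpl5 read 12.5141 on 6 h array 1, below the other 4 at 12.5823 to 12.5979. Rplp1 read 13.4294 on 6 h array 3, above the others at 13.37 to 13.3842. At 18 h Rpl36a read 12.8052 on array 4, against 12.712 to 12.7387 on the others, and Rps4x read 12.6075 on array 5, against 12.5296 to 12.5475. Rpl30 read 10.577 on 18 h array 1, with the others at 10.478 to 10.4903.

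In H2O tumours, Rpl37a read 12.3778 on 0 h array 5, below the others at 12.4674 to 12.5005. Array 5 at 6 h was apart for both Rpl36a, at 12.7752 above 12.6654 to 12.6795, and Rpl7, at 12.1877 below 12.2804 to 12.3077. At 18 h Rps3 read 11.9352 on array 1, above 11.84 to 11.8525, and Rpl5 read 12.6595 on array 2, above 12.5695 to 12.5952. Without H2O 0 h array 5 the change of Rpl37a at 18 h was 0.086 (limma adjusted p = 0.125), and without H2O 18 h array 1 that of Rps3 was 0.094 (adjusted p = 0.109).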

How the results depend on the processing

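None of the 8 members that passed, nor Rps27l or Rpl10l, turned its sign under the alternatives run, but which members passed did change. The signs of named genes from the other lists were not followed through the alternatives. The count of 8 members from 0 to 18 h in H2O tumours became 3 with array medians subtracted, 14 after quantile normalisation, 13 with dim genes left out, 1 with only the compared groups and 14 with array weights, and ranged from 1 to 7 with arrays left out in turn. Members higher and lower then numbered 2 and 1, 14 and 0, 11 and 2, 0 and 1 (Rpl14 alone), and 11 and 3. The counts without H2O 0 h array 4 or 5 or H2O 18 h array 3 include Rpl29, which was lower. Rpl36a passed in 16 of 17 settings, Rps9 and Rps19 in 13, Rpl23 in 12, Rpl7 in 9, and Rpl26, Rps3 and Rpl37a in 8, each with the same sign in 17. For ABX against H2O the count of 0 became 1 at 6 h with array weights, 1 at 18 h with dim genes left out, and, averaged over the times, 1 after quantile normalisation, 2 with dim genes left out and 2 with array weights. Leaving arrays out gave 0 to 1 at 6 h, 0 to 1 at 18 h and 0 to 2 averaged. Dim genes left out means fewer genes tested, and the cause of the other shifts was not tested. The share of all genes that passed in each setting is not given beside these counts. The shifts therefore cannot be read as particular to the members. In the other 6 comparisons the count of members was 0 in all settings run.

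Beside the members, the 17 biogenesis genes lower at 18 h in H2O tumours numbered 10 with only the compared groups, and the 11 higher in ABX than in H2O tumours numbered 20 with dim genes left out and 5 with only the compared groups. Signal over background was not assessed, since no detection value was used. No paired analysis was possible because the labels number the samples through the series and no number is shared between groups.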
